A study of Homo sapiens with 16 samples.

Results

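HeyA8, a human ovarian cancer cell line, was sampled 24 and 48 h after transfection, and the control cells of both times were compared. Members were chosen by label alone: the 4 of 16 libraries of the series that came from HeyA8 cells and received mock treatment or siNT1. At each time, 1 library came from mock cells and 1 from cells given 1 nM siNT1, a nontargeting siRNA that the sample names call siNT_3AB. The labels give both lines as wild type, seeded in 6-well plates, with RNAiMax as the transfection reagent. They state 1 nM, whereas the text of the study gives another concentration, so the dose behind siNT1 was taken from the labels only. The other HeyA8 libraries received siGGGGGC or siCAG at 1 nM, with 1 library per siRNA and time. The prostate cancer line PC3 had the same 8 conditions, and its 4 control libraries were set beside HeyA8 where noted.

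Each library was 1 measurement, so the 24 h and 48 h groups held 2 libraries each, and mock and siNT1 cells served together as controls. Nothing in the labels says that the libraries came from separate experiments, so every p-value measured the spread between these samples, which may be technical. HeyA8 is a single line. Per the study's methods, cells kept for 48 h had their medium changed at 24 h, whereas those lysed at 24 h had no such change, so time in culture and the medium change cannot be told apart. Reads counted in genes numbered between 29128446 and 31790209 per library. The file listed 26485 genes, of which 13298 had enough reads to be tested.

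Control cells in a transfection experiment are usually the baseline for the siRNA. They are still growing cultures: they divide, fill the dish and lay down extracellular matrix. Cholesterol supply is sensed in the endoplasmic reticulum, where INSIG1 holds back the SREBP transcription factors when sterols are plentiful. When sterols are scarce, SREBP is released and switches on the enzymes of sterol and fatty acid synthesis. TGF-beta and BMP ligands act through SMAD proteins on ID genes, inhibitory SMADs and matrix genes, and secreted antagonists such as noggin and gremlin hold BMP ligands back.

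From 24 to 48 h, 23 of 25 genes of sterol synthesis and uptake rose, whereas 20 of 43 extracellular matrix genes and 13 of 28 genes of the TGF-beta and BMP pathway fell. With edgeR's quasi-likelihood test and treatment as block, 692 genes were higher at 48 h and 899 were lower at a Benjamini-Hochberg adjusted p under 0.05. These were 5.2% and 6.76% of the genes tested, and 12% in either direction. A change of at least 2-fold was called for 36 genes that were higher (0.271%) and 114 that were lower (0.857%). The median size of the change among called genes was 0.41 on the log2 scale. The same sign in mock and in siNT1 cells was found for 1575 of the 1591 called genes, or 99.0%, a share the call itself favours, and for 65.4% of all genes tested. The 4 libraries left 1 residual degree of freedom, and the spread was in effect taken from the trend over all genes, a biological coefficient of variation of 6.91%. When the 8 control libraries of both lines shared the estimate of spread, the coefficient was 10.5% and 43 genes were higher (0.281%) and 65 lower (0.425%) in HeyA8 cells. All of these 108 genes, 0.706% of those tested, were also called with 4 libraries, in the same direction. DESeq2 on the 4 libraries called 179 genes higher (1.35%) and 236 lower (1.77%), or 3.12% in all, each of them also called by edgeR. Both 48 h libraries lay above both 24 h libraries for 20.9% of all genes tested and below them for 20.8%, or 41.7% together. Below, a gene is said to rise or fall where the 4-library test called it. The value after a log2 fold change is its SE from that fit, and a second adjusted p is from the 8-library fit. This SE follows the trend over all genes, so it does not show how far a gene's own libraries varied. Of 116 called genes under the rule for named genes, 39 changed in size by over 1.5 times when 1 library was left out and the block was dropped; for those named below, the lowest and highest values past that bound are given with the library left out.

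**Figure D1:**
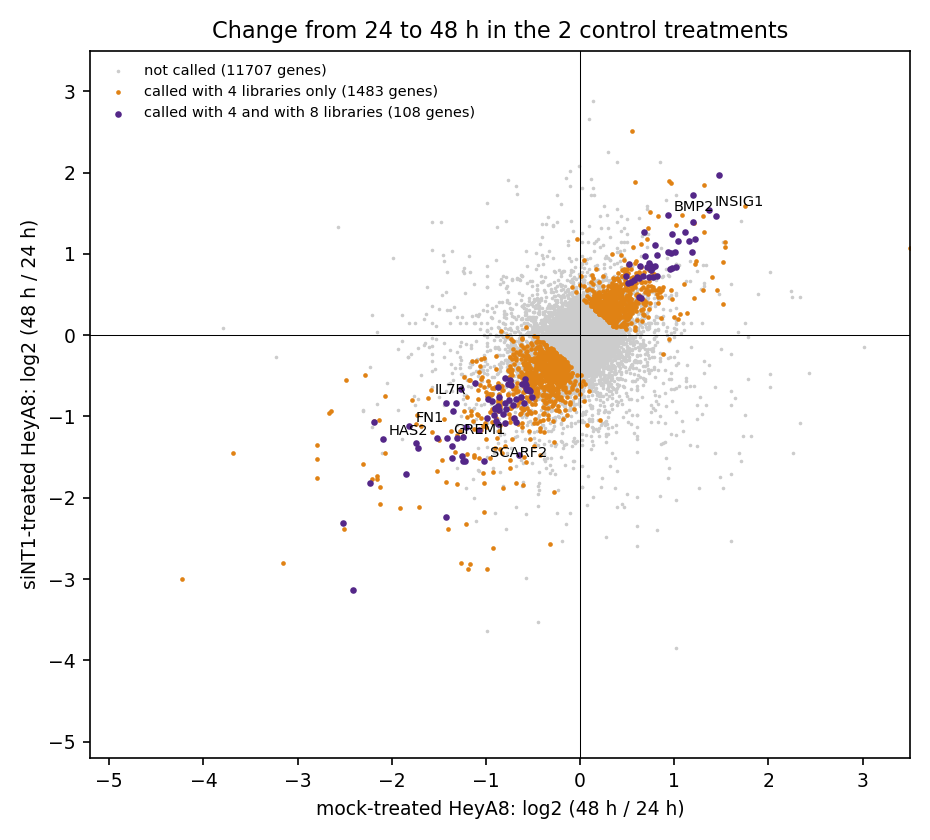
Each point is 1 of 13298 genes, placed by its log2 ratio of 48 h over 24 h in mock cells (horizontal axis) and in siNT1 cells (vertical axis), each ratio from 1 library per time; 2 genes lie outside the axes. The 108 genes called with 4 and with 8 libraries lie away from 0 along the diagonal, with INSIG1 and BMP2 at the upper right and HAS2, FN1 and GREM1 at the lower left.

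Genes of sterol synthesis and uptake had the largest share of rises among the pathway lists. Of 25 genes on the list, all of which were tested, 23 rose and none fell, beside 5.2% and 6.76% of all genes. The median log2 change of the list was 0.66, beside -0.01 for all genes tested, and 13 members were also called with 8 libraries. INSIG1, the sterol sensor's retention factor (chr7:155297776-155310235, hg38), measured 1857 and 2827 normalized counts at 24 h and 4785 and 8217 at 48 h, in mock and siNT1 cells in that order, as in all value pairs below. Both 48 h libraries lay above both 24 h libraries, and siNT1 cells were higher than mock cells at both times. The log2 fold change was 1.45 ± 0.09 (adjusted p = 1.73e-59, and 0.0033 with 8 libraries). HMGCS1, the synthase that makes HMG-CoA (chr5:43287470-43313512), measured 4172 and 4731 normalized counts at 24 h and 9051 and 11442 at 48 h. The groups did not overlap, and the log2 fold change was 1.20 ± 0.09 (0.00345 with 8 libraries).

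The later steps of the pathway rose as well. FDFT1, squalene synthase, which makes the first committed sterol intermediate, measured 5845 and 5299.7 at 24 h and 11369 and 10702 at 48 h, giving a log2 fold change of 0.99 ± 0.09 (8-library adjusted p = 0.00597). MSMO1, a methylsterol oxidase, measured 2743 and 3435 at 24 h and 4746 and 7407 at 48 h, giving a log2 fold change of 0.95 ± 0.09 (8-library adjusted p = 0.0145). For both genes the lower 48 h library was above the higher 24 h library. MSMO1 stood at 0.62 without the siNT1 library of 48 h. The other members are outside the rule for named genes and were picked after their values were seen. SQLE, squalene epoxidase, rose by 0.74, and DHCR7, which makes the last step to cholesterol, by 0.90. SREBF2, the SREBP gene most tied to sterols, rose by 0.43. The smallest change among the called genes was 0.40 for STARD4, a sterol carrier. The members that did not pass were PMVK (-0.08) and TM7SF2 (0.29).

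**Figure D2:**
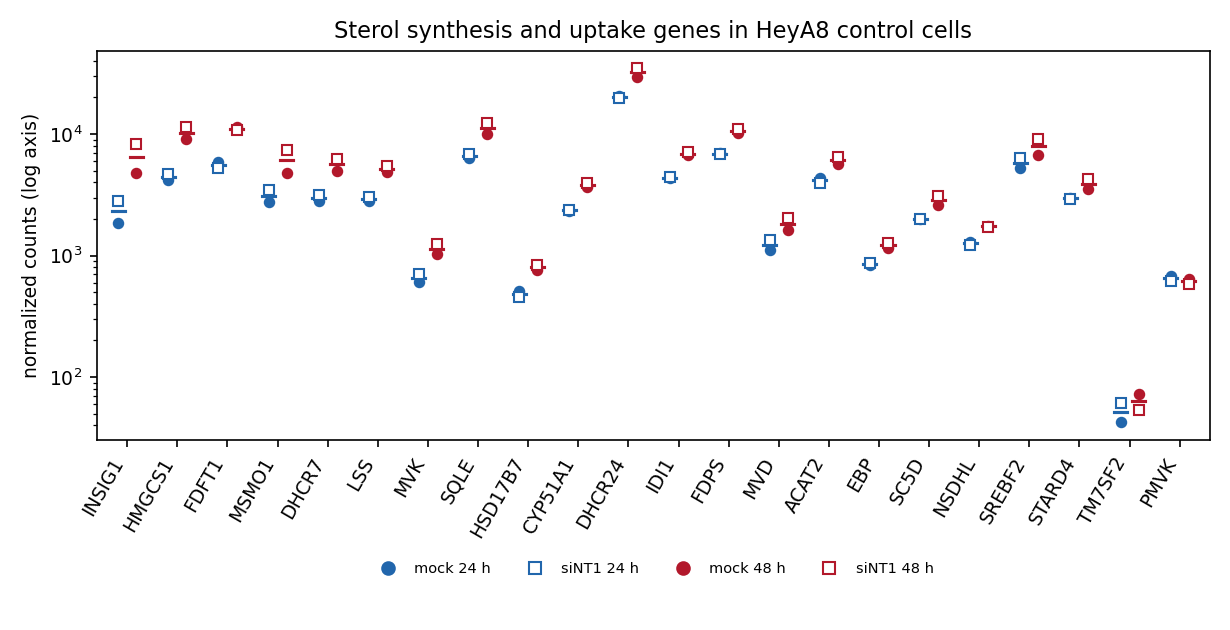
Normalized counts (log axis) of 22 sterol synthesis and uptake genes in the 4 HeyA8 control libraries, ordered from the largest rise to the largest fall; filled circles are mock, open squares siNT1, and bars the means of the 2 libraries at 24 h (blue) and 48 h (red). In 20 of these 22 genes both 48 h libraries lie above both 24 h libraries.

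SREBP binds sterol regulatory elements, often beside a CCAAT box bound by NF-Y, so the promoters of the list were searched for letters of both. RefSeq promoter windows (GRCh38.p14, from 250 bases before to 50 after the gene start) were held for 18 of the 25 sterol genes and for 9809 genes tested. The letters TCACNCCA, on either strand, were in 3 of the 18, or 16.7%, and in 4.7% of the tested genes with a window and 4.8% of all 27305. The shorter CCAAT, on either strand, was in 16 of the 18, or 88.9%, and in 43.5% of the tested genes and 39.7% of all. The 3 windows with TCACNCCA are shown with the match in capitals, and their genes rose (MSMO1 by 0.95, MVK, mevalonate kinase, by 0.80, SREBF2 by 0.43), as did 13 of the 15 without these letters.
MSMO1, chr4:165327502-165327531, plus strand: tctcactatccTCACTCCAtccgcggagcc
MVK, chr12:109573588-109573617, plus strand: gttcgcagttcTCACCCCAgggcgggacac
SREBF2, chr22:41832961-41832990, plus strand: atgacgcgccaTCACCCCAcgcaccgcttc
For CCAAT, the window of INSIG1, whose rise was described above, is shown beside that of LSS, lanosterol synthase, with the box in capitals as its reverse complement.
INSIG1, chr7:155297696-155297725, plus strand: cgccggcctcccATTGGttgcggccgcctc
LSS, chr21:46228907-46228936, minus strand: cgcggcgctctgATTGGttgcgtgggcgtc
The matches begin 156, 195 and 133 bases before the RefSeq start in the first 3 windows and 170 and 150 bases before it in the last 2. For INSIG1 this RefSeq start is not the first base of the gene coordinates given above. A match describes these letters only and was not tested as a binding site.

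Fatty acid synthesis genes followed in part. Of 12 genes, 6 rose (50%, beside 5.2% of all genes) and none fell, with a median of 0.29, and 3 of the 6 were also called with 8 libraries. SCD, the desaturase that makes oleate (chr10:100347015-100364831), measured 24444 and 22016 normalized counts at 24 h and 47978 and 52323 at 48 h. The 48 h values lay far above those of 24 h in both treatments, with a log2 fold change of 1.11 ± 0.10 (8-library adjusted p = 0.00551). FASN, fatty acid synthase, measured 13207 and 15394 at 24 h and 21530.4 and 27591 at 48 h, a change of 0.77 ± 0.09 (0.0193 with 8 libraries). SREBF1, the SREBP gene most tied to fatty acids, rose by 0.60 ± 0.09 (0.0473), and ELOVL6, an elongase, by 0.58 ± 0.09, which the 8-library fit did not call (0.0542). SREBF1 stood at 0.37 without the siNT1 library of 48 h. ACLY, the citrate lyase that supplies acetyl-CoA, was at 0.16 and did not pass. LPIN1, a phosphatidate phosphatase of triglyceride synthesis, was among the largest rises outside the lists, from 3761 and 3385 at 24 h to 7719 and 7529.7 at 48 h, or 1.10 ± 0.09 (0.0053 with 8 libraries). On the sterol efflux list, 7 of 8 genes were tested and 1 was called each way (14.3%). ABCA1, the cholesterol exporter, rose by 1.03 ± 0.14 without a call in the 8-library fit (0.109), and APOE, an apolipoprotein with at most 22 normalized counts in any library, was called lower.

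In the TGF-beta and BMP pathway, more genes fell than rose. Of 28 members tested from a list of 32, 13 fell (46.4%) and 2 rose (7.14%), beside 6.76% and 5.2% of all genes, with a median log2 change of -0.46, and 6 falls and 1 rise were also called with 8 libraries, where 0.425% and 0.281% of all genes were. Among ligands, BMP2 rose: it measured 364 and 365 normalized counts at 24 h and 695 and 1016 at 48 h. The 24 h libraries were alike and both 48 h libraries were higher, the siNT1 library more so, with a log2 fold change of 1.21 ± 0.13 (adjusted p = 6.82e-19, and 0.0241 with 8 libraries). INHBA, an activin subunit, fell by 0.50 and TGFB1 by 0.32 on the log2 scale, both outside the rule for named genes. Among antagonists, GREM1, gremlin, which binds BMP ligands, measured 3670.2 and 3522 normalized counts at 24 h and 1379 and 1463 at 48 h, giving a log2 fold change of -1.34 ± 0.09 (8-library adjusted p = 0.0148). The file places GREM1 on an alternate contig of chromosome 15. NOG, noggin, another BMP antagonist outside the rule, fell from 189.6 and 204 at 24 h to 78.9 and 72.4 at 48 h, a change of -1.38 ± 0.21.

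Several target genes of the pathway fell too. ID1, a dominant-negative helix-loop-helix factor and classical BMP target (chr20:31605283-31606514), measured 2117 and 3478 normalized counts at 24 h and 821 and 1225 at 48 h. The siNT1 library was the higher at each time, and the groups did not overlap. Its log2 fold change was -1.44 ± 0.09 (8-library adjusted p = 0.0193). ID3, its relative, measured 1104 and 1141 at 24 h and 433 and 596 at 48 h, a change of -1.14 ± 0.11 (0.0148). SMAD7, the inhibitory SMAD induced by the same signals, was outside the rule and fell by 1.11 from 374 and 460.1 at 24 h to 139 and 257 at 48 h. Of the receptors, TGFBR1 fell by 0.32 and TGFBR2 was called higher by 0.26. The TGFBR2 values were 10454 and 13762 at 24 h and 9836 and 20795 at 48 h, so its groups overlapped, and the mock cells alone moved slightly the other way.

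**Figure D3:**
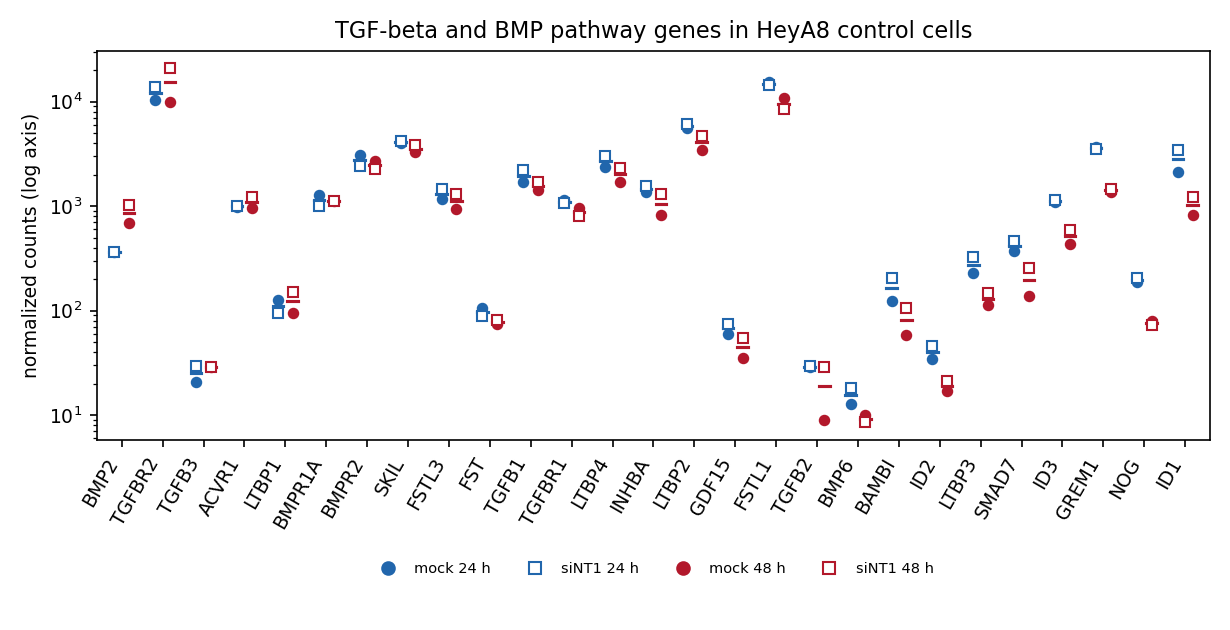
Normalized counts (log axis) of 27 TGF-beta and BMP pathway genes tested, ordered from the largest rise to the largest fall; filled circles are mock, open squares siNT1, and bars the means of the 2 libraries at 24 h (blue) and 48 h (red). BMP2 stands at the rising end, and NOG, GREM1, ID3 and ID1 at the falling end, where the 48 h libraries lie below those of 24 h.

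Extracellular matrix genes gave the longest list of falls. Of 43 genes tested from 49, 20 fell (46.5%) and 4 rose (9.3%), beside 6.76% and 5.2% of all genes, with a median of -0.28, and 6 falls and 1 rise held with 8 libraries. FN1, fibronectin, an adhesive glycoprotein of the matrix (chr2:215360440-215436070), measured 172673 and 153792 normalized counts at 24 h and 49002 and 70889 at 48 h. Fibronectin reads dropped in both treatments, more in mock (-1.82) than in siNT1 cells (-1.12). The log2 fold change was -1.47 ± 0.10 (8-library adjusted p = 0.0167), with an SE of 0.18 in the 8-library fit. TGFBI, a matrix protein named for its induction by TGF-beta (chr5:136028895-136063818), measured 3065 and 3525 at 24 h and 928 and 1349 at 48 h, a change of -1.55 ± 0.09 (0.00345). THBS1, thrombospondin, which can release TGF-beta from its latent form, measured 400.0 and 359.9 at 24 h and 86.9 and 172 at 48 h, a change of -1.59 ± 0.17 (0.0328). Several collagens were among the falls, COL6A1 by 0.87 and COL6A3 by 2.48, the latter from at most 84.9 normalized counts. TNC, tenascin, went the other way: it measured 9654 and 9139 at 24 h and 15444 and 22051 at 48 h, a rise of 0.97 ± 0.09 (0.037 with 8 libraries). The other genes that rose, LAMB3, COL5A2 and SPARC, did so by 0.42, 0.32 and 0.25; these, COL6A1 and COL6A3 were picked after their values were seen.

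HAS2, the hyaluronan synthase, had the largest fall among called genes with at least 500 normalized counts. It measured 2376 and 2198 normalized counts at 24 h and 555 and 906 at 48 h, both 48 h libraries well under the 24 h ones. The log2 fold change was -1.68 ± 0.10 (8-library adjusted p = 0.0138), with an SE of 0.18 in the 8-library fit. By treatment, the change was -2.10 in mock and -1.28 in siNT1 cells. KITLG, the ligand of the receptor KIT, measured 2261 and 1931 at 24 h and 789 and 800.1 at 48 h, a change of -1.40 ± 0.10 (0.016). SCARF2, a scavenger receptor family member, fell by 1.29 from 595 and 940.2 at 24 h to 293 and 322 at 48 h (0.0221). IL7R, a cytokine receptor chain, fell from 1079 and 766 at 24 h to 353 and 449 at 48 h, a change of -1.19 ± 0.12 that the 8-library fit did not call (0.0744). Of 15 integrins tested, 2 subunits of matrix receptors fell (13.3%, beside 6.76% of all genes), ITGA2 (-0.47) and ITGB3 (-1.05), neither of them called with 8 libraries, and the list's median was 0.04. Of 22 YAP/TEAD targets, genes that respond to cell spreading and density, 7 fell (31.8%) and 1 rose (4.55%), with a median of -0.13. Of these calls, 1 fall and no rise held with 8 libraries. F3, tissue factor, measured 4646 and 5511 at 24 h and 2562 and 2913 at 48 h, a change of -0.89 ± 0.08 (0.0138). ANKRD1 had the largest change of this list, -1.98 ± 0.33, at no more than 87.9 normalized counts, with 0.101 as 8-library adjusted p. AXL, a receptor tyrosine kinase, was the member that rose, by 0.31. CYR61 and CTGF, both abundant members, were not called, at 0.07 and -0.18. These and AXL were picked after their values were seen.

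Part of the NRF2 and p53 target genes fell. Of 22 NRF2 targets tested, 9 fell (40.9%, beside 6.76% of all genes) and none rose, with a median of -0.26, and 2 of the 9 were called with 8 libraries. HMOX1, heme oxygenase, measured 1682 and 1883 at 24 h and 924 and 1114 at 48 h, a change of -0.81 ± 0.10 (0.0221 with 8 libraries). FTH1, the ferritin heavy chain, measured 28372 and 35690.0 at 24 h and 19208 and 22300.4 at 48 h, a change of -0.62 ± 0.09 (0.037). SLC7A11, the cystine transporter, and GCLM, a subunit of the enzyme that starts glutathione synthesis, fell by 0.90 and 0.83 without a call in the 8-library fit (0.265 and 0.0765). SLC7A11 stood at -1.53 without the mock library of 48 h and -0.38 without the mock library of 24 h. Among 28 p53 targets, 9 fell (32.1%) and 1, CCNG1, rose (3.57%, beside 5.2% of all genes), none of them called with 8 libraries. FAS, the death receptor, fell by 0.51, and ZMAT3, an RNA-binding p53 target, by 0.42.

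Part of the chaperone genes rose. Of 20 endoplasmic reticulum chaperone and unfolded protein response genes, 8 rose (40%) and 1, CRELD2, fell (5%), beside 5.2% and 6.76% of all genes, with a median of 0.18. Only 1 of the 8 rises was also called with 8 libraries, and the fall was not. HSPA5, the chaperone BiP, measured 24531 and 31311 normalized counts at 24 h and 37342 and 51298 at 48 h, a change of 0.66 ± 0.09 (8-library adjusted p = 0.0221). HSPA5 stood at 0.42 without the siNT1 library of 48 h. HERPUD1, part of the machinery that degrades misfolded proteins, rose by 0.69 ± 0.09 (0.0624), and HSP90B1, another lumenal chaperone, by 0.45 ± 0.09 (0.11). Of 18 heat shock and cytosolic chaperone genes tested from 19, 7 rose (38.9%) and none fell. HSPA1A and HSPA1B, near-identical copies of the inducible HSP70 whose reads cannot be told apart with certainty, rose by 0.77 and 0.78 and were called with 8 libraries (0.0303 and 0.0337). Of 32 ATF4 and amino acid response genes, 10 rose (31.2%) and 3 fell (9.38%), and 1 rise and no fall held with 8 libraries. AARS, alanyl-tRNA synthetase, rose by 0.55 ± 0.09 (0.048), and SLC7A11, which is also an ATF4 target, was one of the falls.

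Part of the NF-kB target genes rose. Of 22 NF-kB targets tested from 27, 7 rose (31.8%) and 2 fell (9.09%), beside 5.2% and 6.76% of all genes, with a median of 0.22. IL1A, the alarmin interleukin-1 alpha, measured 312 and 346 normalized counts at 24 h and 712 and 701 at 48 h, a change of 1.10 ± 0.13 (0.0494 with 8 libraries). IL11 rose by 1.45 ± 0.17 from 131 and 144 at 24 h to 254 and 538 at 48 h (0.0598), and IL1B and NFKB2 rose by 0.83 and 0.49, none of these 3 called with 8 libraries. IL11 stood at 0.88 without the siNT1 library of 48 h. The falls were TNFAIP3, a brake on NF-kB, by 0.73 and CXCL8 by 0.41, both picked after their values were seen. Of 37 interferon response genes tested from 46, 8 fell (21.6%) and none rose, and 2 of the 8 were also called with 8 libraries. IFI44 measured 514 and 296 at 24 h and 216 and 100.1 at 48 h, a change of -1.39 ± 0.16 (0.0345), and mock cells were the higher at both times. IFI44 stood at -0.91 without the siNT1 library of 48 h and -0.90 without the mock library of 24 h. GBP1, a guanylate-binding GTPase, fell by 0.95 ± 0.15 (0.0434), and TRIM22 fell by 0.82 ± 0.12 (0.0676). Of 32 immediate early and MAPK feedback genes, 6 fell (18.8%) and 3 rose (9.38%), with a median of -0.06. KLF4 measured 649.9 and 719.7 at 24 h and 376 and 384 at 48 h, a change of -0.85 ± 0.13 (0.0286), and BHLHE40, a circadian and hypoxia-responsive repressor outside this list, rose from 594 and 629 at 24 h to 1134 and 1279 at 48 h, or 0.98 ± 0.11 (0.0193).

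Part of the S phase genes fell. Of 54 E2F and DNA replication genes, 16 fell, or 29.6% beside 6.76% of all genes, and 1, MCM7, rose, with a median of -0.16, but none was called with 8 libraries. CCNE2, cyclin E2, which brings CDK2 into S phase, measured 3605 and 2044 normalized counts at 24 h and 1989.5 and 899 at 48 h. Each treatment fell, siNT1 cells were the lower at each time, and the mock library at 48 h lay just under the siNT1 library at 24 h. The log2 fold change was -1.01 ± 0.09 (8-library adjusted p = 0.0598). CCNE2 stood at -1.64 without the mock library of 48 h and -0.50 without the mock library of 24 h. CDT1, the licensing factor, fell by 0.45 ± 0.09, E2F2 fell by 0.75 ± 0.17 and ORC6, an origin recognition subunit, fell by 0.40 ± 0.10. CDT1 stood at -0.27 without the siNT1 library of 24 h. E2F2 stood at -0.45 without the siNT1 library of 48 h. Of 50 G2/M and mitosis genes, AURKB (0.46) and PSRC1 (0.39) rose, or 4% beside 5.2% of all genes, and none fell, with a median of 0.06. Neither AURKB nor PSRC1 was called with the 8 control libraries (0.181 and 0.18). With all 8 HeyA8 libraries, siRNA-treated cells included, AURKB stood at -0.66 and PSRC1 at -0.45, neither of them called. The difference between the S phase and mitosis lists was not tested. CCND1, cyclin D1, measured 37079 and 55134 at 24 h and 28702 and 40690.0 at 48 h and fell by 0.40 ± 0.09, CDKN1A, the CDK inhibitor p21, fell by 0.29, and CDKN1B, p27, rose by 0.35, none of them called with 8 libraries. CCND1 stood at -0.68 without the siNT1 library of 48 h and -0.0934 without the siNT1 library of 24 h. CDKN1A stood at -0.70 without the siNT1 library of 48 h and 0.0798 without the mock library of 48 h. CDKN1B stood at 0.13 without the mock library of 24 h and 0.60 without the siNT1 library of 24 h. Of 73 replication-dependent histone genes, 15 were at 0 in all 4 libraries and 55, these included, had under 10 reads in each; of the 11 tested, HIST1H2BK fell, by 0.82 ± 0.11 (0.0186).

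The letters TTTCCCGC and TTTGGCGC, common cores of E2F sites, were looked for on both strands in the promoters of the E2F list. Windows were held for 46 of the 54 genes. TTTCCCGC was in 11 of them, or 23.9%, and in 3.3% of tested genes and 2% of all genes with a window. TTTGGCGC was also in 11, or 23.9%, and in 1.4% of tested and 0.8% of all. The windows of CDT1 and E2F2, which fell, are shown beside that of MCM7, which rose, with the match in capitals. TTTCCCGC, as its reverse complement, stood before both CDT1 and MCM7, genes that moved in opposite directions, and E2F2 is shown for TTTGGCGC. Most genes with a match were not called: with TTTCCCGC, 3 of 11 fell, 1 rose and 7 were not called, beside 10 falls among the 35 without it. With TTTGGCGC, 4 of 11 fell and 7 were not called, beside 9 falls and 1 rise among the 35 without it.
CDT1, chr16:88803743-88803772, plus strand: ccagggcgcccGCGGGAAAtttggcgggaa
E2F2, chr1:23531257-23531286, minus strand: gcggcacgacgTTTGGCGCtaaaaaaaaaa
MCM7, chr7:100101566-100101595, minus strand: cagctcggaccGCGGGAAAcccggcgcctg

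Lists of general machinery are given as shares beside the 5.2% higher and 6.76% lower of all genes. Of 77 cytosolic ribosomal protein genes, 3 rose (3.9%) and 1 fell (1.3%), RPL13 by 0.40. RPL13 stood at -0.71 without the mock library of 24 h and -0.0667 without the siNT1 library of 24 h. Of 35 ribosome biogenesis genes NOP10 (0.49) rose and RRS1 (-0.36) fell, or 2.86% each way. Of 33 proteasome genes PSMB6 (0.31) rose and PSMB2 (-0.25) fell, or 3.03% each way. PSMB2 stood at -0.48 without the mock library of 48 h and -0.016 without the siNT1 library of 48 h. Nuclear respiratory chain subunits had 16 rises (21.3%) and 1 fall (1.33%), ATP5D by 0.43, among 75 genes. The list's median was 0.12 and none was called with 8 libraries. ATP5G1, a subunit of ATP synthase, rose by 0.56 ± 0.09. ATP5D stood at -0.79 without the siNT1 library of 48 h and -0.0355 without the siNT1 library of 24 h. Of 20 glycolysis genes 3 rose (15%), among them LDHA, lactate dehydrogenase (0.31 ± 0.10), and PFKFB4, a regulator of glycolytic flux (0.91 ± 0.19, 0.0284 with 8 libraries). Of 22 hypoxia targets 5 rose (22.7%) and 2 fell (9.09%), none of them called with 8 libraries. DDIT4, an mTORC1 inhibitor, rose by 0.77 ± 0.18 (0.0883 with 8 libraries). DDIT4 stood at 0.44 without the siNT1 library of 48 h and 0.49 without the mock library of 24 h. Of 16 FOXO and MondoA targets 5 rose (31.2%) and 2 fell (12.5%): FBXO32, an atrophy ubiquitin ligase, rose by 1.31 ± 0.21 (0.0193), CCNG2, an atypical cyclin, by 1.02 ± 0.18 (0.0242), and IRS2, the insulin receptor adaptor, fell by 0.94 ± 0.13 (0.037). GAPDH, at 218697 and 232104 at 24 h and 261160.0 and 247445 at 48 h, was not called (0.17 ± 0.11), nor was ACTB (-0.27 ± 0.10, adjusted p = 0.0733).

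No gene of the remaining lists was called with 8 libraries, and their shares stand beside the same 5.2% higher and 6.76% lower. Lysosome and autophagy genes had 4 falls (10.8%), among them GAA (-0.39) and TPP1 (-0.31), and 1 rise (2.7%), NPC1 (0.27), among 37. GAA stood at -0.25 without the siNT1 library of 24 h and -0.25 without the mock library of 48 h. NPC1 stood at 0.17 without the siNT1 library of 48 h. Wnt pathway genes had 4 falls (36.4%), WNT5A (-0.70), FZD7 (-0.66), FZD8 and ZNRF3, and 1 rise (9.09%), the antagonist DKK1 (0.41), among 11. WNT5A stood at -1.15 without the siNT1 library of 48 h and -0.27 without the mock library of 48 h. FZD7 stood at -0.38 without the mock library of 48 h and -0.36 without the siNT1 library of 24 h. No Notch pathway gene of 10 was called; NOTCH2, the most abundant, stood at 0.17 ± 0.09. CPT1A and ANGPTL4 (-0.50) fell among 8 PPAR targets (25%), HLA-B (-0.38) among 9 HLA class I genes (11.1%), and MALAT1 (-0.49) and SNHG12 among 15 nuclear noncoding RNAs and snoRNA hosts (13.3%). ANGPTL4 stood at -0.92 without the siNT1 library of 48 h and -0.0833 without the siNT1 library of 24 h. HLA-B stood at -0.58 without the siNT1 library of 48 h and -0.18 without the mock library of 48 h. MT1E (0.56) and MT2A (0.41) rose among 4 metallothionein and zinc genes (50%), although MT1E differed more between treatments than between times. MT1E stood at -0.00863 without the siNT1 library of 48 h and 1.13 without the siNT1 library of 24 h. MT2A stood at 0.17 without the mock library of 24 h and 0.66 without the siNT1 library of 24 h. The file held no mitochondrially encoded mRNA under the names searched.

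Marker genes were read in every library to check the label. PAX8, a lineage factor of ovarian carcinoma, measured 3966 and 4269.7 normalized counts at 24 h and 5616 and 4889 at 48 h, and KRT8 ranged from 18120 to 23490, whereas FOLR1 was at 0. The summed level of the 10 ovarian markers was 45970 and 54280 at 24 h and 58700 and 51550 at 48 h. Keratins made up much of it, with KRT8, KRT18 and KRT7 at 18120, 14404 and 8295 in mock cells at 24 h. In PC3 control cells at 24 h, KRT18 measured 8058 and 6923 and KRT7 12605 and 20345.5, so these keratins do not single out an ovarian line. PAX8 measured 130 and 151 there. Of the 8 ovarian markers tested, 2 rose, PAX8 (0.35 ± 0.08) among them, and 1 fell, none of them called with 8 libraries. The prostate markers KLK3, KLK2 and TMPRSS2 were at 0 in all 4 libraries. STEAP2, the most abundant of the 8 prostate markers, measured 262 and 283 at 24 h and 284 and 262 at 48 h, and the list summed to 419.8 and 420 at 24 h and 399.5 and 369.7 at 48 h. Of its 8 members 3 were tested and none was called. The blood markers CD3E, HBB and HBA1 were at 0, while CD68 was present and fell by 0.47. CD68 stood at -0.25 without the siNT1 library of 48 h. COL1A1, the most abundant fibroblast marker, went from 179 and 290.2 at 24 h to 117 and 178 at 48 h, a change of -0.66 ± 0.18, and DCN was at 0. COL1A1 stood at -1.0 without the siNT1 library of 48 h and -0.28 without the siNT1 library of 24 h. CDH5, the most abundant endothelial marker, measured 97.8 and 96.4 at 24 h and 269.7 and 142 at 48 h and was called higher at 1.03 ± 0.20, though not with 8 libraries (0.181). CDH5 stood at 0.55 without the mock library of 48 h. The part of these markers in the changes above was not tested. Among epithelial and mesenchymal markers, KRT18 (0.49) and OCLN (1.11) rose and KRT7 (-0.69) and SNAI2 (-0.87), a repressor of epithelial genes, fell, none of them called with 8 libraries. OCLN stood at 0.74 without the siNT1 library of 24 h. KRT7 stood at -0.43 without the siNT1 library of 24 h. SNAI2 stood at -0.49 without the mock library of 48 h.

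The same interval in PC3 control cells was set beside HeyA8. With the 8 control libraries, 21 genes were higher (0.137%) and 23 lower (0.15%) in PC3 cells. The sign in PC3 matched that in HeyA8 for 1131 of the 1591 genes called in HeyA8, or 71.1%, and for 59.3% of all genes with a value. Sterol genes had a median of 0.41 in PC3, with 5 of 25 called higher, and INSIG1 changed by 1.13 there. ID1 and ID3 fell in PC3 as well, by 1.34 and 1.51, and HMOX1 by 0.87. HAS2 was at 0.34 in PC3, FN1 at -0.13, TGFBI at -0.01 and HSPA5 at -0.35, none of these called. TGFBI was near the floor in PC3, at 5.97 and 31.8 normalized counts at 24 h and 5.76 and 31.7 at 48 h. Its PC3 value therefore says little about a change. NF-kB targets had a median of -0.74 in PC3, with 6 called lower, and ER chaperones one of -0.17.

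The difference in time change between the lines was tested directly as an interaction. No gene of 15301 passed an adjusted p of 0.05 in edgeR, although 1371, or 8.96%, had an unadjusted p under 0.05 and the smallest adjusted p was 0.0504. DESeq2 called 23 genes with a higher and 20 with a lower change in HeyA8. In the edgeR fit, HAS2 and HSPA5 had unadjusted p of 2.99e-05 and 3.29e-05, and FN1 one of 5.54e-04. HMGCS1, which stood at 0.32 in PC3 without a call, had an unadjusted p of 1.28e-04 in that fit. DESeq2 called the differences of HAS2, HSPA5 and HMGCS1 but not that of FN1 (DESeq2 adjusted p = 0.49).

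**Figure D4:**
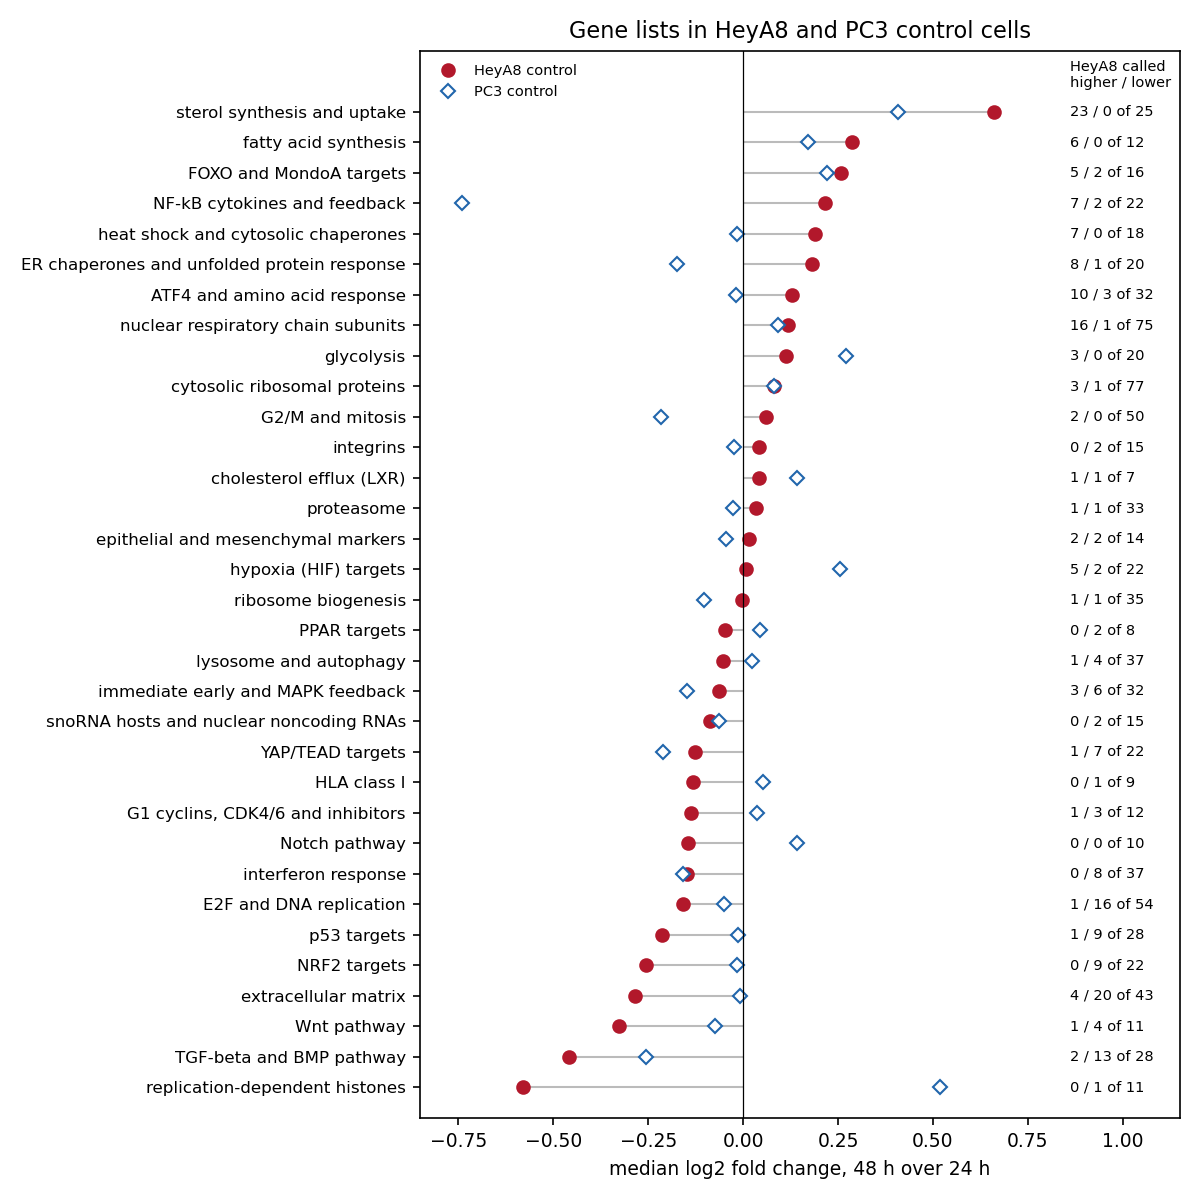
Median log2 fold change, 48 over 24 h, of each gene list in HeyA8 control cells (filled circles) and PC3 control cells (open diamonds), with the number of HeyA8 genes called higher and lower of those tested at the right. Sterol synthesis and uptake stands highest in HeyA8, and NF-kB targets lie on opposite sides of 0.

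HeyA8 cells given siGGGGGC or siCAG had 1 library per time, so their time changes are values with no test. Of the 1591 called genes, 66.1% had the same sign after siGGGGGC and 57.8% after siCAG, beside 56.4% and 50.9% of all genes. INSIG1 changed by 1.61 after siGGGGGC and 1.83 after siCAG, and HMGCS1 by 1.16 and 1.93. After siCAG both genes started lower at 24 h than in control cells. INSIG1 went from 1544 to 5478 normalized counts and HMGCS1 from 1204 to 4599, scaled over the 8 HeyA8 libraries. HMGCS1 thus reached only about its level in control cells at 24 h (4172 and 4731). The sterol list's median was 0.63 after siGGGGGC and 0.23 after siCAG. BMP2 was lower at 48 h after both siRNAs, at -0.45 and -0.62. FN1 changed by -2.21 after siGGGGGC and by 0.36 after siCAG, and GREM1 by -2.54 and 2.09. The E2F list stood at -0.39 after siGGGGGC and -1.96 after siCAG, and the G2/M list at -0.11 and -4.46.

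**Figure D5:**
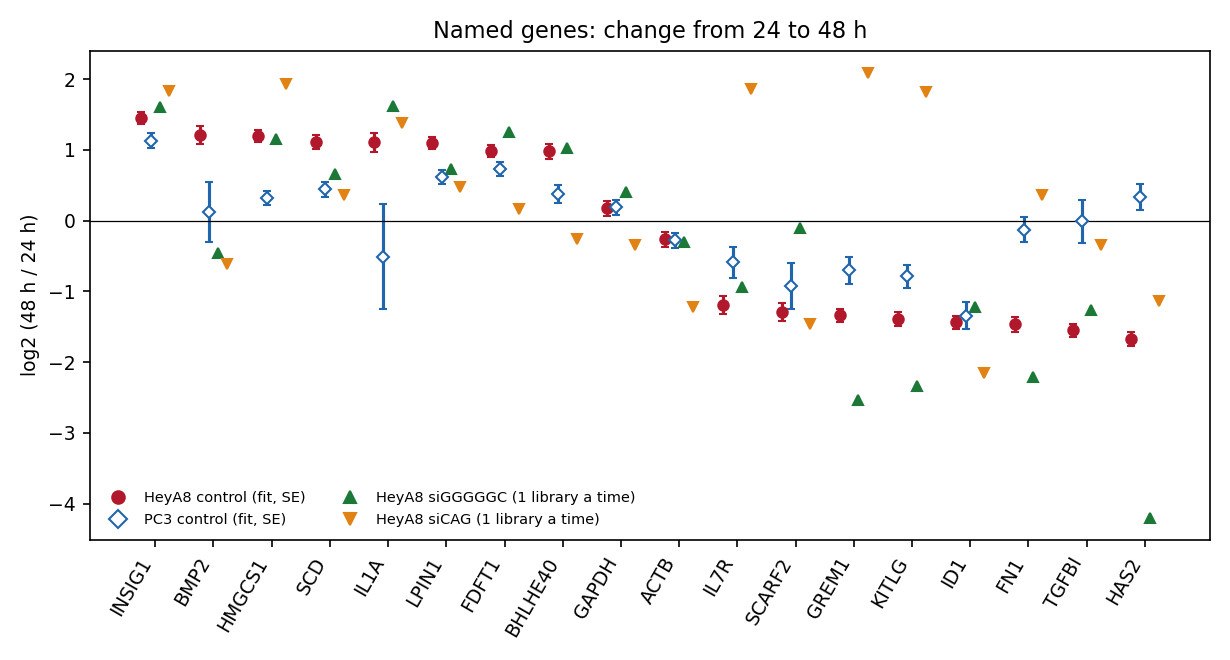
Log2 ratio of 48 over 24 h for 16 named genes and for GAPDH and ACTB. The 16 are the 8 largest rises and 8 largest falls among called genes with at least 500 normalized counts. Values for HeyA8 control cells and PC3 control cells are fitted, and bars are SE. For HeyA8 they come from the 4-library fit, where the SE follows the trend over all genes, and for PC3 from the 8-library fit. In PC3, BMP2, IL1A, TGFBI and SCARF2 had at most 21.6, 8.96, 31.8 and 52.3 normalized counts in any control library. Values for HeyA8 cells after siGGGGGC and siCAG come from 1 library per time and have no error. INSIG1 lies above 0 in all 4 settings and ID1 below 0 in all 4, whereas GREM1 and FN1 lie above 0 after siCAG.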

How the data were processed

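The authors isolated total RNA (miRNeasy, DNase) and made TruSeq Total RNA libraries; the submitters' processing notes name STAR and HTSeq, and the deposited table holds raw read counts per gene with hg38 coordinates and a gene length, which was not used. Members, gene lists and alternatives were chosen with earlier results of these data known. Counts were analysed in R 4.3.3 with edgeR 4.0.16 (limma 3.58.1): TMM normalization, filterByExpr, and the quasi-likelihood test with treatment as block and Benjamini-Hochberg adjustment. Normalized counts are counts scaled to the mean effective library size. The SE was taken from the fold change and its F statistic. The 8-library fit had line by treatment blocks and a time term per line, and the difference between lines was its interaction. Log2 ratios of single treatments used a pseudocount of 1. DESeq2 1.42.0 was an alternative. Named genes were the 8 largest rises and 8 largest falls among called genes with at least 500 normalized counts and 1 direction in both treatments, up to 4 called genes per list by smallest p (else the most abundant), and GAPDH and ACTB; other names were chosen after their values were seen. Values of some single genes are not reported here. The scripts were tested on simulated data.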

Additional observations from a re-analysis of the deposited data

How the results depend on the processing

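With 2 libraries a time, 1 residual degree of freedom and mock and siNT1 cells standing in for replicates, the count of called genes depended on how the spread was estimated; the cause of the differences below was not tested unless the setting itself removed genes or libraries. Of 692 higher and 899 lower genes, DESeq2 called 179 and 236, the 8 control libraries of both lines 43 and 65, a fit with no replicate block 4 and 8, and all 8 HeyA8 libraries with the siRNA-treated cells 0 and 0, where 345 and 500 genes had an unadjusted p under 0.05. A fold of at least 2 left 36 and 114. Leaving out 1 library, with no replicate block since 3 libraries leave too few degrees of freedom, gave 0 to 100 higher and 0 to 135 lower genes: both counts were 0 without the mock library of 24 h (376 and 699 at an unadjusted p under 0.05) or its siNT1 library (434 and 484), 100 and 135 without the mock library of 48 h, and 52 and 118 without its siNT1 library, the lone library of a time being assumed to vary like the others. RLE size factors, no filter on low counts, a minimum of 1 CPM in 2 libraries and robust shrinkage of the spread, which was added after seeing the data, kept both counts within 1.5 times. The labels give the control libraries no replicate number, and the block was the treatment, mock or siNT1. Across 7661 genes of at least 500 normalized counts, the mock and siNT1 deviations at 24 and 48 h correlated at 0.62, and over all genes tested at 0.31.

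For the difference between HeyA8 and PC3, 0 genes were called in either direction with the main settings (738 higher and 633 lower at an unadjusted p under 0.05) and with no replicate block (276 and 350), RLE size factors called 6 higher and 8 lower, DESeq2 23 and 20, and the filter at 1 CPM 4 and 7. Leaving out 1 library gave 0 to 745 higher and 0 to 349 lower genes. The counts were 0 without any 1 of the HeyA8 libraries (224 to 311 higher and 340 to 415 lower at an unadjusted p under 0.05), 225 and 252 without the PC3 siNT1 library of 24 h, 225 and 263 without that of 48 h, 741 and 349 without the PC3 mock library of 24 h, and 745 and 349 without that of 48 h.

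Of the 116 called genes among 120 named, 114 kept their direction in each fit with 1 library left out, and 39 moved in size by over 1.5 times in at least 1 of them. CDKN1A and MT1E did not: CDKN1A stood at 0.0798 and 0.0217 without the mock library of 48 h or the siNT1 library of 24 h, and MT1E at -0.00863 without the siNT1 library of 48 h. STEAP2, never called, reversed to -0.0016 with the filter at 1 CPM and to -0.049 and -0.0445 without either mock library. With all 8 HeyA8 libraries the sign reversed for AARS (-0.0419), AURKB (-0.66), CDKN1A (0.0165), HSPA8 (-0.0185), KRT18 (-0.0684), LAMP2 (0.25), LOX (0.15), MALAT1 (0.14), PSRC1 (-0.45), TRIB3 (-0.0763), WNT5A (0.16) and ZMAT3 (0.38), none of them called there.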

Other observations

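Genes of the contractile cytoskeleton were grouped only after their values were seen, so their count describes that choice. Of 12 genes in the group 10 were tested and 7 fell, beside 6.76% of all genes, 3 of them also called with the 8 control libraries, beside 0.425% of all genes, and the median log2 change was -0.38 in HeyA8 and -0.06 in PC3 control cells. TAGLN, the actin-binding protein transgelin, measured 288 and 294 normalized counts at 24 h and 123 and 100.1 at 48 h in mock and siNT1 cells, a log2 fold change of -1.39 ± 0.18. ACTA2, smooth muscle actin, measured 608 and 641 at 24 h and 257 and 268 at 48 h, a change of -1.25 ± 0.14, and TPM1, a tropomyosin, measured 10059.5 and 11771 at 24 h and 4623 and 7834 at 48 h, a change of -0.85 ± 0.09. The edgeR 8-library adjusted p-values of these 3 genes were 0.0294, 0.0186 and 0.0337. MYL9, TPM2 and VCL stood at -0.35, -0.37 and -0.12 and were not called.

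Single genes outside the lists, also picked after their values were seen, were called with 4 and with 8 libraries. SMAD9, a BMP-responsive SMAD, measured 605 and 505 at 24 h and 242 and 282 at 48 h, a change of -1.08 ± 0.14, and SERPINE2, a protease inhibitor, changed by -0.89 ± 0.13. FMN2, a formin, went from 79 and 101 at 24 h to 14 and 10.7 at 48 h (-2.84 ± 0.36). On the rising side, HAPLN1, which links hyaluronan to proteoglycans, measured 209 and 249 at 24 h and 488 and 569 at 48 h (1.21 ± 0.15), and NPR1, a natriuretic peptide receptor, 76.1 and 79.2 at 24 h and 176 and 264 at 48 h (1.48 ± 0.20). In PC3 control cells SMAD9 stood at -0.23, SERPINE2 at -0.39, FMN2 at -0.36, HAPLN1 at -0.12 and NPR1 at -1.45, none of them called. HAPLN1 and NPR1 had at most 38.4 and 24.9 normalized counts in any PC3 control library.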
